A study of Mus musculus with 23 samples.

Results

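Extra-embryonic tissue (ExE) was compared with epiblast (E) in mouse embryos at stage E6.25 that carried 1 gene-trapped and 1 intact allele of Tet1 (Tet1gt/wt), a dioxygenase that oxidises 5-methylcytosine in DNA. The libraries were taken by their labels alone: 4 heterozygous ExE pools (numbered 1, 2, 3 and 5) and 4 heterozygous E pools (numbered 2, 3, 4 and 5), 8 of the 23 libraries of the series. The other 15 libraries were wild type (wt; 4 ExE and 4 E pools) or homozygous for the trap (Tet1gt/gt; 3 ExE and 4 E pools) and served here as a comparison for the size of the tissue difference. Each library was made from poly(A) RNA of a pool of lysates from at least 6 embryos of several litters, genotyped after collection, so that a library averages several embryos. The labels state that same-numbered E and ExE pools came from the same litters in 3 of 4 cases, and pools 2, 3 and 5 are the numbers that the heterozygous tissues share. All 8 libraries carry the trap, and no statement on TET1 loss follows from a comparison among them.

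Shortly after implantation the mouse conceptus is a cup of epiblast, the source of the whole embryo proper, capped by extra-embryonic ectoderm and, at the far end, by the ectoplacental cone, both of which descend from trophoblast and build the placenta. A layer of visceral endoderm surrounds them. FGF4 from the epiblast is known to keep trophoblast in a stem cell state through FGFR2, while BMP4 and the proprotein convertases of the extra-embryonic ectoderm act back on the epiblast, where NODAL signalling patterns the embryo. The epiblast genome gains DNA methylation at this stage through DNMT3A and DNMT3B, and trophoblast stays less methylated.

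Total counts per heterozygous library ranged from 5764399 to 9494814, with 13028 to 14183 genes having at least 1 count. Levels are given as CPM, read counts scaled to a common library size by the TMM method. A gene with 0 counts may still have an expected count of up to 3 by sampling alone, equal to 0.319 to 0.528 CPM in these libraries. ExE libraries correlated with each other at r = 0.949 to 0.962 over log2 CPM of 8790 genes, and E pools 2, 3 and 5 at 0.958 to 0.960. E pool 4 stood apart, with r = 0.813 to 0.831 with the other E pools and 0.752 to 0.800 with ExE pools. Its short, GC-rich transcripts read high. Each gene's departure from the median log2 CPM of the library's own group was regressed on the log2 length of its transcript. The slope was -0.47, against -0.075 to 0.079 in the other 7 heterozygous libraries, and the slope per 10% of GC content was 0.712, against -0.138 to 0.117. Homozygous E pool 3 and homozygous ExE pool 3 had similar slopes, -0.425 and -0.464 for length and 0.774 and 0.882 for GC content. For 202 genes chosen as high in heterozygous ExE against E pools 2, 3 and 5, the median level was 25.1% of the ExE mean in E pool 4, and 3.26 to 17.2% (the latter in homozygous E pool 3) in the 8 E pools of the other genotypes, none of which took part in the choice. The medians of 2.78, 4.45 and 4.36% in E pools 2, 3 and 5 are low by that choice. For 160 genes high in E it was 64% of the mean of the other E pools. Results that rest on E pool 4 are given with and without it, and the part of the library bias or of ExE cells in them was not tested.

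**Figure D1:**
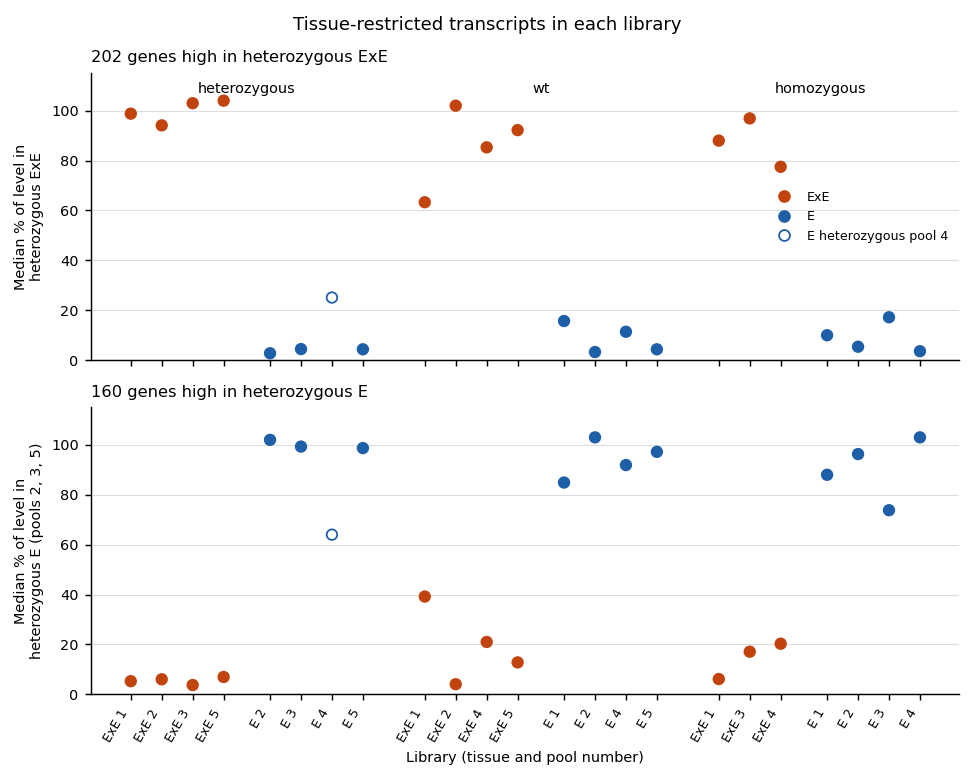
Median level of 202 genes high in heterozygous ExE (top) and 160 genes high in heterozygous E (bottom) in each of the 23 libraries, in percent of the mean level in heterozygous ExE or in heterozygous E pools 2, 3 and 5. Among heterozygous libraries the open circle, E pool 4, stands at 25.1% and 64%, while the wt and homozygous ExE pools reach up to 39.2% for the E genes.

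Of 13595 genes tested, 3664 (27%) differed between heterozygous ExE and E at an adjusted p under 0.05 in edgeR's quasi-likelihood test, 1633 (12%) higher and 2031 (14.9%) lower in ExE. Called differences of at least 1 on the log2 scale numbered 1208 (8.89%) higher and 1673 (12.3%) lower, and those of at least 2 numbered 606 (4.46%) and 1172 (8.62%). E pool 4 was the highest E library for 852 of the 1633 genes called higher (52.2%), against 38.2% of all genes tested. Whether called or not, the 4 ExE and 4 E libraries did not overlap for 1943 genes (14.3%) that were higher and 2097 (15.4%) that were lower in ExE. These shares are the background for every gene list that follows. In bulk tissue, fewer cells of a type and less RNA per cell cannot be told apart.

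**Figure D2:**
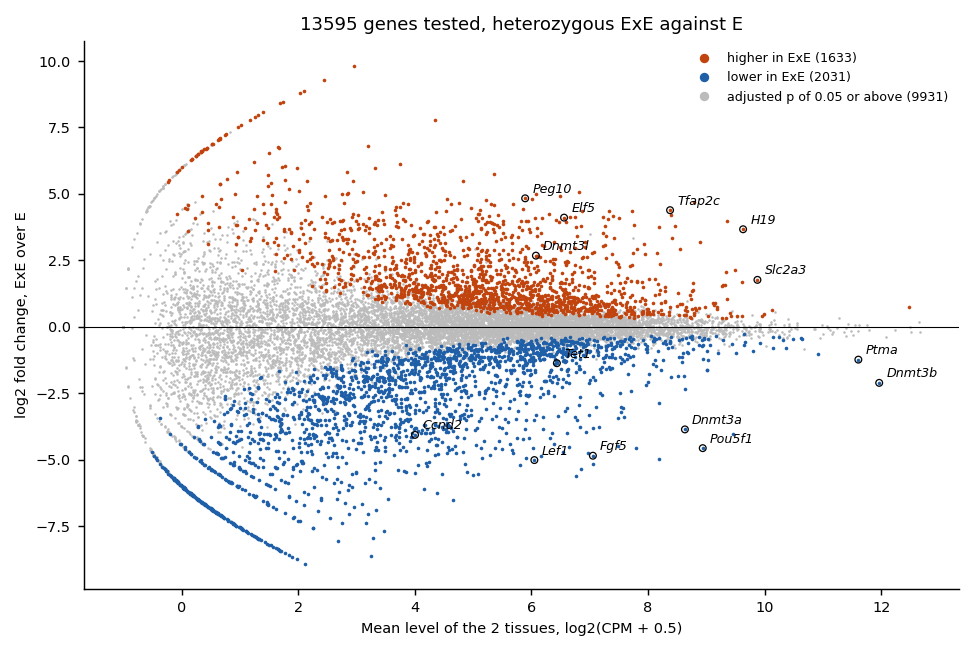
Log2 fold change of heterozygous ExE over E against the mean level of both tissues, log2(CPM + 0.5), for 13595 genes. Orange points are the 1633 genes called higher and blue points the 2031 called lower in ExE, and the curved lines of points at the left edge are genes with 0 counts in all libraries of 1 tissue.

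Regulators of trophoblast stem cells and extra-embryonic ectoderm were higher in ExE nearly throughout: 16 of 17 listed genes passed the test, all of them higher, with a median log2 fold change of 4.11 over the list, against -0.05 over all genes tested. Cdx2, the homeobox factor that sets up the trophoblast lineage, stood at 175, 180, 149 and 160 CPM in ExE pools 1, 2, 3 and 5, against 1.81, 2.88, 33.8 and 5.78 CPM in E pools 2, 3, 4 and 5. Elf5, an ETS factor of trophoblast stem cells, stood at 167, 173, 168 and 200 CPM in ExE, against 0.106, 1.15, 35.9 and 5.38 CPM in E. Tfap2c, which encodes the trophoblast factor AP-2 gamma, stood at 645, 553, 845 and 490 CPM in ExE, against 2.34, 4.26, 110 and 6.17 CPM in E. For each of these genes the tissues did not overlap and E pool 4 was the highest E library. The log2 fold change was 3.95 ± 0.93 for Cdx2 (SE; adjusted p = 0.00305), 4.11 ± 1.07 for Elf5 (0.00636) and 4.39 ± 1.22 for Tfap2c (0.01). Without E pool 4 it was 5.60, 6.38 and 7.24 for these genes in that order, a move of over 1.5 times in the fold. E pool 4 was the highest E library for 15 of the 17 genes, and without it all 17 were called, with a median of 5.62.

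Other members followed the same pattern. Esrrb, an orphan nuclear receptor, rose by 4.20 ± 0.92 (adjusted p = 0.00163; 5.65 without E pool 4), Gata3 by 4.23 ± 0.99 (0.00297; 5.12) and Tead4, the Hippo pathway factor of trophoblast, by 3.73 ± 0.89 (0.00334; 6.12). Sox21 rose by 4.79 ± 0.99 (0.00102; 5.95), Duox2 by 4.76 ± 0.82 (0.000177; 5.62) and Elf3 by 2.82 ± 0.67 (0.00333; 3.67), the value without E pool 4 being the last in each case. Eomes, a T-box factor that the epiblast also uses, differed less: it stood at 447, 458, 422 and 513 CPM in ExE, against 141, 163, 166 and 180 CPM in E (log2 fold change 1.5 ± 0.24, adjusted p = 7.83e-05). Ets2 stood at 178, 178, 181 and 172 CPM in ExE, against 33.8, 40.6, 27.1 and 41.5 CPM in E (2.31 ± 0.30, 1.1e-05). Eomes and Ets2 were thus present in every E pool, and their values did not hang on E pool 4. Hand1, a giant cell and mesoderm factor, was the member without a call. Its level was 291, 340, 554 and 376 CPM in ExE, against 0.212, 2.53, 150 and 3.94 CPM in E (3.33 ± 1.30, adjusted p = 0.0604), and the adjusted p was 0.00031 without E pool 4 and 0.000283 with the pool number as a block. Tfap2a, near the detection limit at 0.986 to 2.58 CPM in ExE and 0 to 0.352 CPM in E, had an adjusted p of 0.0462 that became 0.0826 with the block, and between 0.0529 and 0.114 when any library other than E pool 4 was left out.

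**Figure D3:**
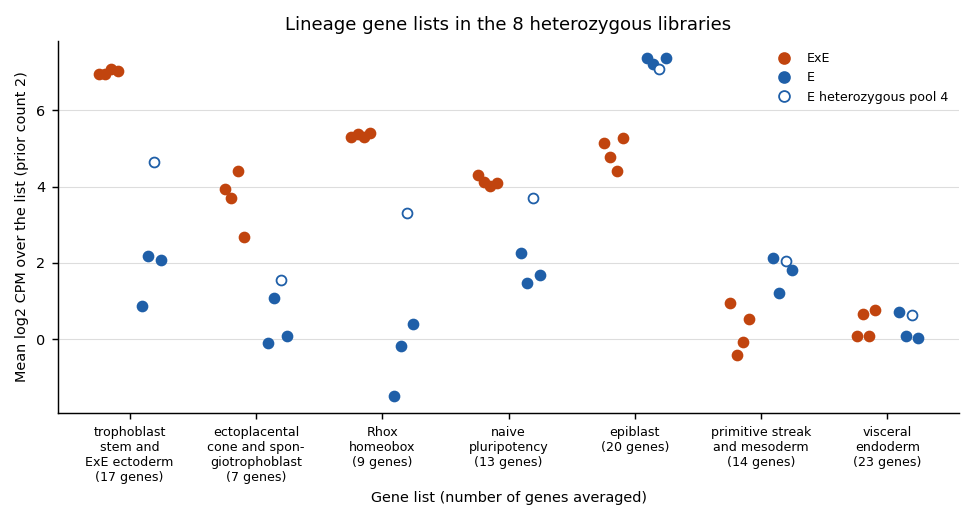
Mean log2 CPM (prior count 2) of 7 gene lists in each heterozygous library, ExE left and E right, with E pool 4 as an open circle. The trophoblast stem cell list lies near 7 in all ExE pools and between 0.88 and 4.64 in E pools, while the visceral endoderm list is below 1 in every library.

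Epiblast genes went the other way: 15 of 20 listed genes passed the test, all lower in ExE, with a median log2 fold change of -2.01. Pou5f1, which encodes the pluripotency factor OCT4, stood at 42.7, 37.6, 13.5 and 64.9 CPM in ExE, against 926, 867, 1110 and 860 CPM in E. Fgf5, a ligand that marks primed epiblast, stood at 12.2, 7.89, 1.23 and 14.1 CPM in ExE, against 284, 262, 136 and 342 CPM in E. Sall2, a zinc finger factor, stood at 9.31, 4.73, 2.34 and 4.9 CPM in ExE, against 127, 117, 117 and 138 CPM in E. ExE pool 3 was lowest for all 3 genes. The log2 fold change was -4.57 ± 0.67 for Pou5f1 (adjusted p = 3.58e-05), -4.85 ± 0.78 for Fgf5 (9.84e-05) and -4.54 ± 0.48 for Sall2 (1.8e-06). Slc7a3, a cationic amino acid transporter, fell by 4.97 ± 0.68 (1.84e-05), Foxd3 by 5.58 ± 0.89 (8.68e-05), Otx2, a factor of anterior epiblast, by 4.20 ± 0.67 (8.54e-05), Nanog by 3.10 ± 0.64 (0.00102) and Tdgf1, the NODAL co-receptor Cripto, by 3.77 ± 0.49 (1.22e-05). Smaller falls were those of Zic2 (2.04 ± 0.38, adjusted p = 0.000366), Zic5 (1.98 ± 0.33, 0.000145), Sall4 (0.97 ± 0.15, 6.63e-05), Trim71 (0.72 ± 0.15, 0.00133), L1td1 (0.64 ± 0.17, 0.0077) and Lin28a (0.65 ± 0.19, 0.0142). For Lin28a the E pool 4 level of 255 CPM lay within the ExE range of 223 to 283 CPM, and its call was lost without E pool 2 (adjusted p = 0.0639).

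The other 5 genes of the epiblast list did not pass the test and were present in both tissues. Sox2 stood at 100, 82.7, 86.5 and 119 CPM in ExE, against 90.4, 117, 71.1 and 80.9 CPM in E (log2 fold change 0.11 ± 0.22, adjusted p = 0.759). Utf1 stood at 494, 472, 474 and 598 CPM in ExE, against 643, 655, 918 and 602 CPM in E (-0.47 ± 0.25, 0.187), with no overlap between the tissues. Pou3f1 ranged from 485 to 658 CPM in ExE and from 570 to 1060 CPM in E (adjusted p = 0.408), and Sox3 from 85.3 to 142 CPM in ExE and from 58.4 to 91.5 CPM in E (0.108). Sox2 is known as a factor of both trophoblast stem cells and epiblast. An adjusted p above the threshold does not show that a gene was equal in the 2 tissues, and Sox3 was called higher in ExE with the pool number as a block (adjusted p = 0.0361).

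Ectoplacental cone genes were also higher in ExE but varied among its pools. Of 10 listed genes 7 could be tested and 5 passed, all higher, with a median log2 fold change of 3.82. Ascl2, which maintains ectoplacental cone progenitors, stood at 153, 90.2, 196 and 65.6 CPM in ExE, against 2.55, 5.65, 27.5 and 3.68 CPM in E. Phlda2, an imprinted growth regulator of the placenta, stood at 481, 291, 584 and 257 CPM in ExE, against 8.82, 10.0, 85.0 and 12 CPM in E. Gata2 stood at 73.6, 35.1, 77.4 and 32.1 CPM in ExE, against 0, 1.5, 3.70 and 0 CPM in E. In these genes ExE pools 1 and 3 were high and ExE pools 2 and 5 low, and Plac1, a trophoblast gene on the X chromosome, spread furthest, at 53.8, 16.9, 85.5 and 1.17 CPM in ExE and at most 0.352 CPM in E. The log2 fold change was 3.72 ± 0.88 for Ascl2 (adjusted p = 0.00305; 5.01 without E pool 4), 3.82 ± 0.81 for Phlda2 (0.00131; 5.31), 5.49 ± 1.21 for Gata2 (0.00177; 6.73) and 7.79 ± 1.5 for Plac1 (0.000517; 7.07 without ExE pool 3 and 8.52 without E pool 3). Pcdh12 was at 0 counts in all E libraries and at 0.223 to 4.30 CPM in ExE. Markers of the more mature placenta were at or near 0. Tpbpa and Tpbpb, the classical markers of spongiotrophoblast, and Prl2c2, Prl4a1 and Ctsq of giant cells had 0 counts in all 8 libraries, and Gcm1 of labyrinth trophoblast reached 1.28 CPM in 1 ExE pool. Of the 2 tested genes of the list without a call, Flt1, a VEGF receptor of trophoblast, stood at 0.746 to 3.01 CPM in ExE, against 4.75 to 7.95 CPM in E (-1.83 ± 0.79, adjusted p = 0.0937), and Prdm1 had reads in 1 ExE and 1 E pool only. None of 4 tested giant cell genes passed, namely Prl3d1 (0 to 0.223 CPM in ExE, 0 to 0.806 CPM in E), Mdfi (2.01 to 3.20 and 1.06 to 4.36 CPM), Adm (0 to 2.23 and 0.531 to 1.31 CPM) and Hand1.

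Many genes of other cell types were near 0, with Apoe and Lrp2 as exceptions. The parietal endoderm list was not sparse and summed to 392 to 586 CPM in the 8 libraries. Of 23 visceral endoderm genes tested, 1 was higher and 2 were lower in ExE, with a median of 0.35, and defining genes such as Afp, Ttr, Hnf4a and Sox17 did not exceed 2.11 CPM in any library. The genes called in the visceral endoderm list were Apoe, Lrp2 and Foxa1. Apoe stood at 618, 548, 601 and 713 CPM in ExE, against 159, 162, 476 and 173 CPM in E (1.36 ± 0.43, adjusted p = 0.0214, or 0.0694 to 0.0723 when E pool 2, 3 or 5 was left out and 0.00142 without E pool 4), and Lrp2, an endocytic receptor gene, at 5.92, 1.29, 4.69 and 2.02 CPM in ExE, against 106, 80.4, 65.5 and 90.0 CPM in E (-4.60 ± 0.79, 0.000173). Foxa1, with 0 counts in ExE, had reads in 2 E pools (3.61 and 0.657 CPM), and its adjusted p of 0.0465 became 0.107 with the block and 0.0597 to 0.0895 without E pool 5 or any 1 ExE pool. Amn, whose product is a partner of the endocytic receptor cubilin, averaged 14 ± 4.02 CPM in ExE and 4.35 ± 3.83 CPM in E (SD, n = 4 each), with E pool 4, at 10.0 CPM, inside the ExE range. It did not pass the test (1.71 ± 0.87, adjusted p = 0.154) and was called higher with the block (0.0174), in the heterozygous libraries alone (0.046) and in these less E pool 4 (0.00084). The block also takes E pool 4 out of the tissue difference. Dab2 reached 27.4 CPM in E pool 3, and the other 19 genes did not exceed 7.35 CPM in any library. Of 8 anterior visceral endoderm genes 2 were called, both lower in ExE, Gsc and Lefty1. Of 11 parietal endoderm genes 2 were higher and 3 lower, with a median of 0.42. The higher ones were Nid1, a basement membrane linker, at 101, 140, 153 and 125 CPM in ExE, against 0, 0.23, 16.9 and 0.394 CPM in E (5.0 ± 1.19, adjusted p = 0.00318; 9.28 without E pool 4), and Pth1r (3.42 ± 0.71, 0.000992; 4.63). The lower ones were Col4a1, a basement membrane collagen (-2.21 ± 0.65, 0.0136; -3.16 without ExE pool 3), Fst, an activin antagonist (-3.35 ± 0.80, 0.00333), and Lamb1, a laminin chain (-0.97 ± 0.26, 0.00836). Of 11 decidual genes 1 was called, Dcn, lower in ExE (-5.59 ± 1.40, 0.00576, or 0.0571 with the block; -7.05 without ExE pool 5), and of 3 white blood cell genes 1, Coro1a, also lower (-1.95 ± 0.39, 0.000788). Of 4 endothelial genes 1 was higher and 1 lower. Kdr, a VEGF receptor of endothelium, was at 1.75, 8.75, 8.93 and 10.7 CPM in ExE and at 0 counts in E. Esam, with 0 counts in ExE, stood at 2.97, 0, 0.528 and 0.131 CPM in E (adjusted p = 0.0405, or 0.212 with the block, 0.189 without E pool 2 and 0.0737 to 0.0808 without any 1 ExE pool). Globin reads moved with ExE pools 1 and 5: red blood cell genes summed to 36.9, 4.01, 2.79 and 30.8 CPM in ExE, against 2.13, 1.38, 2.99 and 1.97 CPM in E, so that the calls of Hbb-bs and Hbb-bt stand beside uneven blood RNA, whose part was not tested. Both globin genes have near-identical copies, are uncertain for that reason, and were not called with the block (adjusted p = 0.145 for Hbb-bs and 0.055 for Hbb-bt). The Hbb-bs call was also lost without ExE pool 1 (0.0772) or E pool 2, 3 or 5 (0.0503 to 0.0546).

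DNA methylation enzymes split by tissue. Of 18 listed enzymes 4 were higher and 4 lower in ExE, with a median of 0.01. Tet1, on chromosome 10 (62804570 to 62908996, minus strand, GRCm38), stood at 45.7, 50.2, 39.3 and 57.1 CPM in ExE, against 147, 146, 66.7 and 137 CPM in E. The tissues did not overlap, although E pool 4 came close to the ExE range. The log2 fold change was -1.37 ± 0.26 (adjusted p = 0.000399), and -1.56 without E pool 4. Tet2 went the other way, at 14.7, 12.9, 13.8 and 9.27 CPM in ExE, against 0, 3.34, 4.22 and 1.71 CPM in E (2.46 ± 0.79, adjusted p = 0.0238, or 0.065 without E pool 5). Tet3 ranged from 20.8 to 29.8 CPM in ExE and from 22.2 to 40.9 CPM in E (-0.40 ± 0.27, adjusted p = 0.305). Whether reads of the trapped allele add to the Tet1 count cannot be told from gene counts.

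The de novo methyltransferases were strongly divided. Dnmt3b stood at 1406, 1523, 1384 and 1701 CPM in ExE, against 7838, 7289, 4194 and 6640 CPM in E (-2.11 ± 0.19, adjusted p = 4.83e-07). Dnmt3a stood at 38.4, 68.2, 34.8 and 62.8 CPM in ExE, against 872, 770, 597 and 726 CPM in E (-3.86 ± 0.41, 1.96e-06). Dnmt3l, the catalytically inactive partner of both, stood at 124, 76.0, 139 and 123 CPM in ExE, against 12.4, 9.33, 40.6 and 10.6 CPM in E (2.68 ± 0.39, 3.88e-05; 3.44 without E pool 4). So the 2 active enzymes were lower and their cofactor higher in ExE than in E, with no overlap for any of the 3. Dnmt3b was still the most abundant of the 3 in ExE. The maintenance machinery did not pass the test: Dnmt1 ranged from 320 to 384 CPM in ExE and from 211 to 364 CPM in E (0.15 ± 0.18, adjusted p = 0.59), and Uhrf1 from 315 to 391 and from 328 to 372 CPM (0.01 ± 0.12, 0.949). Gadd45b and Gadd45g, stress-response genes linked to demethylation, rose by 3.22 ± 1.03 (0.0236; 5.76 without E pool 4, and an adjusted p of 0.0642 to 0.0706 without E pool 2, 3 or 5) and 2.89 ± 0.79 (0.00875; 4.71). Apex1, a base excision repair endonuclease, fell by 0.90 ± 0.26 (0.0131), a call that was lost without E pool 4 (0.055).

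**Figure D4:**
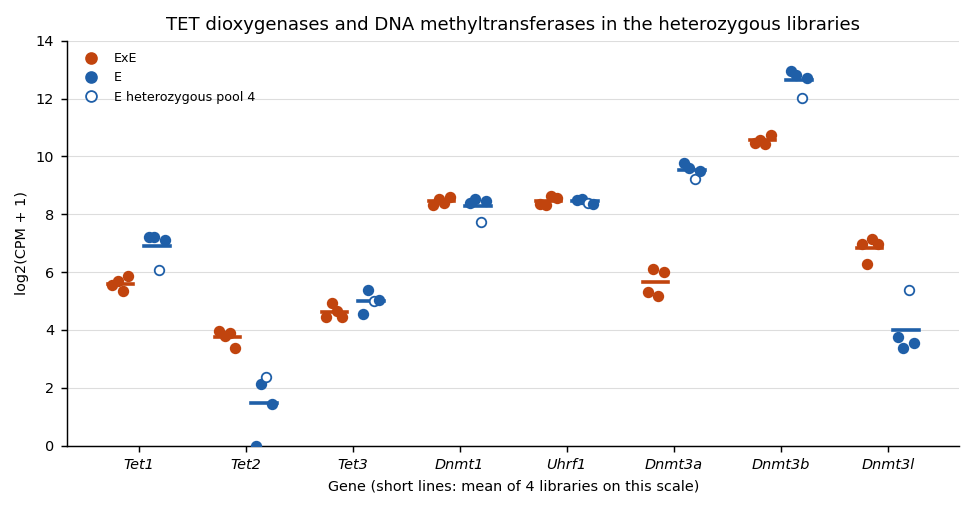
Level of 8 TET and DNA methyltransferase genes, log2(CPM + 1), in each heterozygous library, ExE left and E right, with E pool 4 as an open circle and a line at the mean of 4 libraries on this scale. Dnmt3a, Dnmt3b and Tet1 lie lower in all ExE pools, Dnmt3l and Tet2 higher, and Dnmt1 and Uhrf1 overlap.

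The promoters of 4 genes from both sides of the comparison are printed to show the CpG density at their starts. Each is 250 bases before to 50 bases after the start in RefSeq (GRCm38.p6), 5′ to 3′ on the gene's strand, with CpG dinucleotides in capitals. Cdx2 (chr5:147307200-147307499, minus strand) and Rhox5 (chrX:37754358-37754657, plus strand) were high in ExE, and Fgf5 (chr5:98253934-98254233, plus strand) and Dnmt3b (chr2:153649199-153649498, plus strand) high in E.
Cdx2: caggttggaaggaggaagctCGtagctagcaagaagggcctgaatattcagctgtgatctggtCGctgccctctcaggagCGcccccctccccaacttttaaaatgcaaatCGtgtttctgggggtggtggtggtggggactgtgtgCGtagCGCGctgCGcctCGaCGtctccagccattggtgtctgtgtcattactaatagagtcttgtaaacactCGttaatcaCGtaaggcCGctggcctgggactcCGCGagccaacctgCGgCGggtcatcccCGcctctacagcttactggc
Rhox5: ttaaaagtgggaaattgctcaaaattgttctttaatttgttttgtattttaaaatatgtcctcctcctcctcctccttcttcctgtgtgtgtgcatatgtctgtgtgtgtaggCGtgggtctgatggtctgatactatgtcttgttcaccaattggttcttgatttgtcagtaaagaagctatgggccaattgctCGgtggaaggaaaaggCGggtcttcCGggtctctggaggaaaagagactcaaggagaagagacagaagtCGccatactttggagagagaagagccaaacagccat
Fgf5: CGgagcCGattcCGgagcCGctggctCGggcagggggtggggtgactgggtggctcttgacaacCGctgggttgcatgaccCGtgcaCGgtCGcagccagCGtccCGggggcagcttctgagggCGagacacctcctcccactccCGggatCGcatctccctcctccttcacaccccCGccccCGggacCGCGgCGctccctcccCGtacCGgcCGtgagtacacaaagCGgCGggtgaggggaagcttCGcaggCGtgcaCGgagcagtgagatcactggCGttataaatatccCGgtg
Dnmt3b: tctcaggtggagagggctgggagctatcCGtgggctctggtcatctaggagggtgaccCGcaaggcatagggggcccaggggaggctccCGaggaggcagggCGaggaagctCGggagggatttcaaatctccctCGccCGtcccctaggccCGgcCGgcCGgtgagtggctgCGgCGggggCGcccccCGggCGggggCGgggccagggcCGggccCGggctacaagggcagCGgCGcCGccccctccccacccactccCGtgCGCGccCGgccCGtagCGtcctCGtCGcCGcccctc

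The Rhox5 window held 5 CpG dinucleotides, against 18 for Cdx2, 29 for Fgf5 and 30 for Dnmt3b, and a median of 21 over the 8383 tested genes with 1 promoter in the table. Genes called at least 2 higher in ExE on the log2 scale had a median of 17 (339 genes) and those at least 2 lower a median of 19 (651 genes), and windows with 5 or fewer CpG made up 12.4% and 14.7% of them, against 7.43% of all tested. Over all called genes such windows made up 6.09% of those higher in ExE (952 genes) and 9.85% of those lower (1147 genes). The sequence GCCNNNGGC, bound by AP-2 factors and equal on both strands, was present in 97 of the 339 windows (28.6%) of genes higher in ExE, in 172 of the 651 (26.4%) of genes lower, and in 26% of the 8383. The octamer ATGCAAAT, bound by POU factors such as OCT4 and searched on both strands, was present in 13 (3.83%), 14 (2.15%) and 1.56%. Of the 4 printed windows Cdx2 held both motifs, Fgf5 held GCCNNNGGC, and neither was found in Rhox5 or Dnmt3b. Over all 32851 promoters of the table the shares were 16.6% and 1.74%.

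Several factors of naive pluripotency, the state before implantation, were higher in ExE at this stage. Of 13 tested, 8 were higher and 3 lower in ExE, with a median of 2.00 (2.68 without E pool 4). Zfp42 (Rex1) stood at 111, 150, 120 and 119 CPM in ExE, against 2.02, 5.76, 18.1 and 3.94 CPM in E (4.10 ± 0.68, adjusted p = 0.000133; 5.01 without E pool 4). Nr0b1 (Dax1) stood at 76.7, 56.1, 69.5 and 107 CPM in ExE, against 1.49, 0.806, 10.2 and 1.18 CPM in E (4.57 ± 0.86, 0.000426; 6.06). Klf2 rose by 4.19 ± 0.80 (0.000503; 5.66). Esrrb, named above, is also on this list. E pool 4 was the highest E library for 10 of the 13 genes. The falls were Fgf4, Dppa5a, which fell by 2.60 ± 0.59 (0.00231; -1.90 without E pool 4, where it stood at 222 CPM against 49.9 to 80.3 CPM in the other E pools), and Dppa3, at most 0.447 CPM in ExE and 2.76 to 3.61 CPM in E, which was not called with the block (adjusted p = 0.096).

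FGF ligands were higher in E and a pair of FGF receptors in ExE. Of 24 FGF and ERK genes 6 were higher and 12 lower, with a median of -0.52. Fgf4, the ligand on which trophoblast stem cells depend, stood at 3.29, 4.87, 0 and 0.213 CPM in ExE, against 81.6, 46.4, 45.8 and 41.5 CPM in E (-4.72 ± 0.88, adjusted p = 0.000415; -5.51 without ExE pool 2). Fgfr2, its receptor in trophoblast, stood at 271, 320, 293 and 336 CPM in ExE, against 4.46, 12.1, 30.8 and 12.6 CPM in E (4.36 ± 0.55, 8.93e-06; 4.99 without E pool 4). Neither gene overlapped between the tissues. The ligand Fgf15 fell by 5.45 ± 0.82 (4.78e-05), Fgf8, a ligand of the primitive streak, by 3.79 ± 0.59 (6.66e-05), and Fgf5 as given above. Fgf3 had 0 counts in ExE and 0.352 to 2.55 CPM in E (adjusted p = 0.00828, and 0.0647 with the block). Fgfr4 rose by 3.95 ± 1.12 (0.0114; 4.78 without E pool 4). Of the intracellular members 7 were called lower and 4 higher. Etv5, a transcription factor induced by FGF signalling, fell by 2.08 ± 0.23 (2.22e-06), Dusp4, a MAP kinase phosphatase, by 2.39 ± 0.45 (0.000426), Mapk3, which encodes ERK1, by 2.04 ± 0.32 (7.81e-05) and Etv1 by 4.11 ± 0.88 (0.00142). Dusp5, an ERK phosphatase, rose by 1.48 ± 0.47 (0.0217) and Frs2, an FGF receptor adaptor, by 1.08 ± 0.36 (0.0306). The Dusp5 call was lost without E pool 2, 3 or 5 or ExE pool 1 (adjusted p of 0.0533 to 0.0736). The Frs2 call was lost without E pool 2, 3 or 4 or ExE pool 2, 3 or 5 (0.0537 to 0.0752).

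NODAL and several genes of its pathway were lower in ExE. Of 17 tested, 2 were higher and 7 lower in ExE, with a median of -0.67. Nodal itself, added here after its values were seen because the list turns on it, stood at 3.07, 1.15, 0.335 and 6.07 CPM in ExE, against 33.6, 20.9, 21.1 and 29.6 CPM in E (-3.28 ± 0.77, adjusted p = 0.00296; -4.09 without ExE pool 5). Its co-receptor Tdgf1 and the related ligand Gdf3 were lower too, Gdf3 by 3.43 ± 0.93 (0.00828; -4.10 without ExE pool 1), as was the inhibitor Lefty2, by 3.65 ± 0.86 (0.00305; -4.40 without ExE pool 1). Lefty1 fell by 2.72 ± 0.83 (0.0175), but its call was lost with the block (adjusted p = 0.0512), without E pool 2 (0.068) and without ExE pool 1 (0.054) or 2 (0.0534), and its value was -3.76 without ExE pool 3. Cfc1, a further co-receptor gene, had 0 counts in ExE and 0.131 to 1.5 CPM in E (adjusted p = 0.0227, or 0.163 with the block and 0.0501 and 0.0502 without ExE pool 3 and ExE pool 5). The convertase Pcsk6, which processes the NODAL precursor, went against its ligand. It stood at 96.8, 143, 151 and 166 CPM in ExE, against 12.7, 26.6, 45.0 and 23.6 CPM in E (2.37 ± 0.35, 4.18e-05). The other 3 convertase genes on the list did not pass the test. Of the signal transducers and their partners Smad3 was higher in ExE (1.90 ± 0.24, 8.93e-06), Foxh1, a DNA-binding partner of SMAD proteins, was lower (-1.89 ± 0.32, 0.000145), and the other 2 SMAD genes on the list did not pass. No library of 1 tissue reached the range of the other for Nodal, Tdgf1, Pcsk6 or Smad3.

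The ligand genes Bmp4, Bmp8a and Bmp8b were higher in ExE. Of 19 BMP pathway genes 7 were higher and 3 lower, with a median of 0.40. Bmp4 stood at 137, 142, 116 and 147 CPM in ExE, against 0.106, 5.76, 23.2 and 4.07 CPM in E (4.07 ± 0.81, adjusted p = 0.000744; 5.38 without E pool 4). Bmp8b, which acts with BMP4 in germ cell induction, stood at 158, 164, 134 and 234 CPM in ExE, against 0.744, 0.346, 20.8 and 2.36 CPM in E (4.91 ± 0.87, 0.00025; 7.27), and Bmp8a rose by 4.33 ± 0.88 (0.000922; 7.20). Of the ID genes, targets of BMP signalling, Id2 and Id3 split, while Id1 overlapped between the tissues and did not pass the test (-0.19 ± 0.37, adjusted p = 0.764). Id2 stood at 574, 657, 626 and 772 CPM in ExE, against 22.4, 24.3, 265 and 35.9 CPM in E (2.93 ± 0.70, 0.00357; 4.60). Id3 stood at 35.2, 36.8, 21.7 and 39.7 CPM in ExE, against 292, 316, 493 and 294 CPM in E (-3.38 ± 0.54, 8.14e-05). Id2 and Id3 thus lay on opposite sides with no overlap. Smad1, a transducer, fell by 1.29 ± 0.25 (0.000553), and the receptor gene Bmpr1b was at most 0.143 CPM in ExE, against 2.64 to 15.4 CPM in E (adjusted p = 0.00155).

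WNT and Hippo genes also separated. Of 32 WNT genes 5 were higher and 13 lower in ExE, with a median of -1.10. The ligand Wnt7b stood at 573, 590, 661 and 726 CPM in ExE, against 2.12, 5.88, 125 and 7.75 CPM in E (4.20 ± 1.29, adjusted p = 0.0186; 6.95 without E pool 4, and an adjusted p of 0.0552 or 0.0577 without E pool 3 or 5). Wnt6 stood at 123, 130, 126 and 145 CPM in ExE, against 0, 0.23, 46.1 and 1.05 CPM in E (3.52 ± 1.28, 0.0445; 8.33 without E pool 4). The Wnt6 call was lost when any 1 library other than E pool 4 was left out (adjusted p up to 0.113), and both ligands rested on how E pool 4 is read. On the E side, the receptor Fzd2 stood at 3.18, 6.74, 2.68 and 2.56 CPM in ExE, against 108, 111, 136 and 108 CPM in E (-4.95 ± 0.76, 6.2e-05). The transcription factor Lef1 stood at 3.18, 2.72, 2.90 and 6.82 CPM in ExE, against 134, 141, 123 and 112 CPM in E (-5.01 ± 0.71, 2.52e-05). Sfrp1, a secreted WNT inhibitor, fell by 3.75 ± 0.68 (0.000299), Fzd1, another receptor, rose by 3.02 ± 0.50 (0.00013), Wnt11 rose by 2.94 ± 0.82 (0.01; 3.75 without E pool 4) and Wnt5a had 0 counts in ExE and 0.637 to 3.70 CPM in E. Of 16 Hippo genes 8 were higher and 2 lower, with a median of 0.61. Tead4 was the TEAD factor named above, Tead1 rose by 1.89 ± 0.39 (0.00111; 2.52 without E pool 4), Tead2 fell by 1.05 ± 0.25 (0.00302), and the YAP targets on the list went opposite ways. Cyr61 rose by 2.81 ± 0.46 (0.000119), and Ctgf fell by 1.22 ± 0.37 (0.0185), a call that was lost without E pool 3 or ExE pool 1 or 2 (adjusted p of 0.0572 to 0.09) and in the fit of the heterozygous libraries alone (0.0659).

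**Figure D5:**
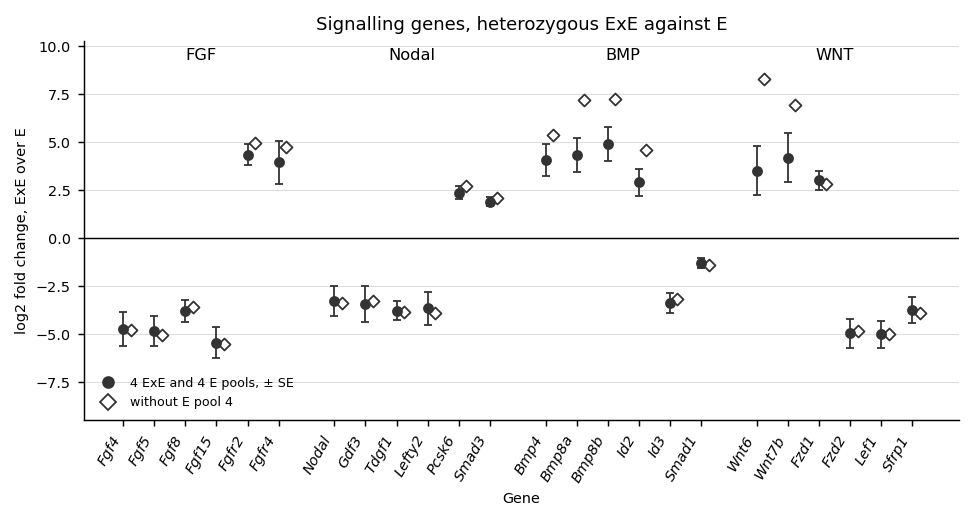
Log2 fold change of heterozygous ExE over E for 24 signalling genes, with SE bars from the fit of 4 ExE and 4 E pools and diamonds for the value without E pool 4. FGF and NODAL ligands lie below 0, Fgfr2, Pcsk6 and the BMP ligands above 0, and the diamonds depart most from the circles for genes high in ExE, such as Wnt6 at 3.52 and 8.33.

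Primitive streak genes were called lower in ExE where they were called at all. Of 14 tested, 6 passed, all lower, with a median of -2.64. By sign alone 11 were lower and 3 higher in ExE, and none of the 3 was called. The list member T did not pass either, at 4.69 to 14.5 CPM in ExE and 5.65 to 16 CPM in E (-0.70 ± 0.56, adjusted p = 0.403). Mixl1 fell by 3.02 ± 0.75 (adjusted p = 0.0048), standing at 5.48, 3.73, 1.23 and 2.34 CPM in ExE, against 39.5, 21.1, 18.7 and 24.2 CPM in E. Gsc fell by 3.67 ± 1.08 (0.0146; -5.07 without ExE pool 5) and Sp5 by 4.57 ± 1.14 (0.00464; -5.56 without ExE pool 1), both at under 11 CPM in every library. Of 2 neural plate genes tested, 1 was called, Six3, with 0 counts in ExE and at most 2.50 CPM in E.

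Several imprinted genes with placental roles were higher in ExE. Of 16 maternally expressed genes 6 were higher and 3 lower, with a median of 0.48, and of 23 paternally expressed genes 6 were higher and 5 lower, with a median of 0.12. H19, a maternally expressed non-coding RNA, stood at 1579, 1333, 1489 and 1471 CPM in ExE, against 19.4, 33.0, 377 and 33.4 CPM in E (3.67 ± 0.92, adjusted p = 0.0047; 5.70 without E pool 4). Igf2, the paternally expressed growth factor of the same locus, rose by 3.55 ± 0.89 (0.00495; 5.68). Peg10, a retroelement-derived gene needed for placenta formation, stood at 112, 109, 146 and 86.3 CPM in ExE, against 2.23, 1.84, 11.8 and 0.788 CPM in E (4.83 ± 0.84, 0.000202; 6.11). Sfmbt2 rose by 4.37 ± 0.93 (0.00131; 6.02) and Gab1, imprinted in trophoblast, by 4.09 ± 0.57 (2.25e-05; 5.05). Slc22a18 was at 3.52 to 7.01 CPM in ExE and at most 0.528 CPM in E (4.71 ± 1.19, 0.00529; 5.48). Others were E genes: Nnat stood at 1.43, 1.58, 1.23 and 2.34 CPM in ExE, against 43.8, 44.0, 55.8 and 34 CPM in E (-4.74 ± 0.48, 1.74e-06), Ndn fell by 3.35 ± 0.69 (0.000935), Gnas by 1.23 ± 0.15 (6.38e-06) and Cd81 by 1.58 ± 0.19 (6.1e-06). Of 4 retroelement-derived placental genes tested, 2 were higher in ExE, Peg10 and Ldoc1 (2.97 ± 0.73, 0.00403; 3.58 without E pool 4).

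The Rhox homeobox cluster on the X chromosome was higher in ExE. Of 9 genes tested 8 passed, all higher, with a median of 4.07 (6.35 without E pool 4), and E pool 4 was the highest E library for all 9. Rhox5, whose promoter is printed above, stood at 1177, 1308, 1106 and 1333 CPM in ExE, against 2.98, 29.0, 262 and 20.2 CPM in E (3.98 ± 1.05, adjusted p = 0.00704; 6.16 without E pool 4). Rhox9 stood at 16.7, 12.6, 10.6 and 13.5 CPM in ExE, and its E reads were all in E pool 4, at 3.34 CPM (4.13 ± 1.12, 0.00863; 9.74). The Rhox4 copies are near-identical, so that the counting could divide their reads, and each of the 4 on the list is uncertain as a single gene. On the whole X chromosome 98 of 534 genes tested (18.4%) were higher and 118 (22.1%) lower, against 11.8% and 14.7% on autosomes. Y-linked reads were uneven among the pools: 6 Y-linked genes summed to 42.4, 70.8, 33.7 and 32.0 CPM in ExE, against 185, 64.4, 31.7 and 100 CPM in E, and their part in X-linked differences was not tested. Of 4 Y-linked genes tested 1 was called, Eif2s3y, lower in ExE (-1.87 ± 0.59, 0.0223, or 0.111 without E pool 2 and 0.0516 to 0.0712 without ExE pool 1, 3 or 5). Of 5 X inactivation genes Rlim was called higher (1.30 ± 0.42, 0.0238, or 0.0583 without E pool 4 and 0.0597 without ExE pool 3) and Ftx lower (-1.17 ± 0.38, 0.0253, or 0.0715 to 0.0854 without E pool 3 or ExE pool 2 or 5).

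Of 18 germline genes 3 were higher and 4 lower, with a median of -0.29. Tex19.1, a methylation-sensitive germline and placenta gene, stood at 275, 327, 326 and 310 CPM in ExE, against 7.65, 5.53, 103 and 8.14 CPM in E (3.33 ± 0.85, adjusted p = 0.00554; 5.46 without E pool 4). Asz1 was at 1.42 to 9.37 CPM in ExE and had E reads in pool 4 alone, at 0.352 CPM (6.05 ± 1.5, 0.00448; 8.53). Sycp3, of the synaptonemal complex, fell by 2.20 ± 0.39 (0.00023).

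The keratin genes Krt7 and Krt8 were higher and Vim and Cdh2 lower in ExE. Of 23 genes of cadherins and the epithelial state 7 were higher and 5 lower, with a median of 0.30. Epithelial genes did not all go 1 way. Epcam was among the lower ones (-0.44 ± 0.12, adjusted p = 0.00705), and further epithelial genes on the list did not pass the test. Krt8 stood at 493, 312, 602 and 330 CPM in ExE, against 25.1, 17.6, 132 and 24.8 CPM in E (3.13 ± 0.62, adjusted p = 0.000703; 4.29 without E pool 4), and Krt7 rose by 2.53 ± 0.67 (0.00743). The tight junction gene Cldn3 rose by 3.00 ± 0.76 (0.00514; 4.64), while Vim, an intermediate filament of mesenchymal cells, fell by 4.01 ± 0.64 (8.3e-05; -4.82 without ExE pool 5) and Cdh2 (N-cadherin) by 3.68 ± 1.05 (0.0117; -4.74 without ExE pool 5). Of 19 integrin and laminin genes 5 were higher and 4 lower, with a median of 0.45. Itga7 stood at 163, 156, 224 and 212 CPM in ExE, against 2.66, 2.53, 37.8 and 1.84 CPM in E (4.12 ± 1.07, 0.00624; 6.33), and Itgav, a subunit of vitronectin receptors, rose by 1.56 ± 0.42 (0.00826). Itga6, a laminin receptor subunit, fell by 1.86 ± 0.36 (0.000517), Fn1 (fibronectin) by 2.72 ± 0.40 (4.26e-05) and Lamb1 by 0.97 ± 0.26 (0.00836).

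More than the background share of transporter genes was called. Of 19 transporter genes 10 were higher and 3 lower, with a median of 0.59. The glucose transporter Slc2a3 stood at 1366, 1295, 1666 and 1479 CPM in ExE, against 388, 451, 357 and 511 CPM in E (1.77 ± 0.29, adjusted p = 0.000122), and Slc2a1 at 1430, 1054, 1515 and 1386 CPM in ExE, against 847, 1010, 900 and 743 CPM in E (0.62 ± 0.15, 0.00459). The amino acid transporter Slc38a4 rose by 2.59 ± 0.32 (8.49e-06) and Slc7a8 by 3.97 ± 1.00 (0.00493; 4.96 without E pool 4). Slc7a3, given above, Slc7a7 (2.58 ± 0.30, 4.04e-06) and Slc38a1 (0.95 ± 0.22, 0.00246) fell. Folr1, a folate receptor, rose by 2.94 ± 1.02 (0.0346; 5.52 without E pool 4), a call lost without any other single library except ExE pool 2 (adjusted p of 0.0566 to 0.0956). Of 21 glycolysis genes 5 were higher and 2 lower, with a median of -0.03: the hexokinase gene Hk1 rose by 2.61 ± 0.31 (4.29e-06), the phosphofructokinase gene Pfkp by 2.63 ± 0.42 (9.66e-05) and Pdk1 by 1.11 ± 0.27 (0.0043), while Eno3 fell by 2.89 ± 0.42 (3.02e-05) and Ldhb by 1.53 ± 0.30 (0.000548). Of 24 cholesterol synthesis genes 3 were higher and 1 lower, with a median of 0.24, a share under the background of 27%.

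The 3 D-type cyclin genes went different ways. Of 24 G1 and endocycle genes 5 were higher and 4 lower, with a median of 0.14. Ccnd1 stood at 8.99, 8.03, 4.35 and 8.31 CPM in ExE, against 79.4, 100, 95.2 and 77.6 CPM in E (-3.57 ± 0.48, adjusted p = 1.58e-05), and Ccnd2 at 2.74, 1.58, 1.23 and 1.39 CPM in ExE, against 19.6, 35.4, 21.3 and 41.1 CPM in E (-4.07 ± 0.45, 2.27e-06). Ccnd3 stood at 431, 378, 443 and 448 CPM in ExE, against 123, 149, 256 and 126 CPM in E (1.38 ± 0.29, 0.00111). Cdkn1c, an imprinted inhibitor of cyclin-dependent kinases that trophoblast giant cells use, stood at 194, 155, 178 and 139 CPM in ExE, against 30.2, 24.5, 47.5 and 19.6 CPM in E (2.45 ± 0.35, 2.93e-05). None of these 4 genes overlapped between the tissues. Of 18 lysosome genes 6 were higher and 2 lower, with a median of 0.35, led by Cd63 (2.43 ± 0.52, 0.00131; 3.43 without E pool 4) and Psap (1.25 ± 0.15, 4.04e-06).

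Chromatin partners of TET1 were called in both directions. Of 17 histone deacetylase and TET1 partner genes 4 were higher and 4 lower, with a median of -0.42. Ogt, the O-GlcNAc transferase that binds TET proteins, stood at 315, 472, 398 and 357 CPM in ExE, against 197, 152, 107 and 223 CPM in E (1.18 ± 0.31, adjusted p = 0.00638). Hdac6 rose by 1.28 ± 0.15 (3.74e-06). Sin3a, a co-repressor scaffold bound by TET1, fell by 1.09 ± 0.22 (0.000977) and its paralogue Sin3b rose by 0.68 ± 0.20 (0.0139). Among the NuRD subunits Mta1 fell by 2.09 ± 0.19 (5.53e-07) and Mta3 rose by 0.99 ± 0.15 (5.62e-05). Of 11 PRC2 genes 2 were higher and 1 lower, with a median of 0.04. Phf19 stood at 20.1, 43.6, 48.0 and 37.7 CPM in ExE, against 0, 0.922, 13.2 and 0 CPM in E (3.49 ± 1.14, 0.0264; 6.85 without E pool 4), and its call was lost without E pool 2, 3 or 5 (adjusted p up to 0.0756) or ExE pool 3 (0.0515).

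Outside the lists, the largest rise in a gene of at least 3 in mean log2 CPM, with no overlap between the tissues, was that of Hs3st3b1, a heparan sulfate sulfotransferase, at 75.1, 83.9, 84.0 and 74.2 CPM in ExE, against 0, 0.576, 2.29 and 3.28 CPM in E (5.74 ± 1.11, adjusted p = 0.000571; 6.53 without E pool 5). Sgpp1, a sphingosine phosphate phosphatase, had no high value in E pool 4 and stood at 60.3, 85.0, 92.0 and 63.3 CPM in ExE, against 3.19, 4.49, 1.76 and 2.50 CPM in E (4.63 ± 0.52, 2.84e-06). Morc4, an X-linked chromatin gene, stood at 770, 945, 807 and 878 CPM in ExE, against 5.10, 16.7, 101 and 9.85 CPM in E (4.70 ± 0.94, 0.000726; 6.35 without E pool 4). Irx2 rose by 4.63 ± 1.11 (0.0035; 6.65), Agpat9 by 4.62 ± 0.71 (5.82e-05; 5.43), Mageb16 by 4.42 ± 0.72 (0.000109; 5.19) and AU018091 by 5.09 ± 1.06 (0.00113; 6.92). The largest falls included Crmp1 at 3.29, 3.44, 1.23 and 3.83 CPM in ExE, against 112, 103, 76.9 and 140 CPM in E (-5.19 ± 0.73, 2.5e-05), and Stxbp6 at 0.986, 3.58, 1.90 and 2.45 CPM in ExE, against 74.0, 78.7, 50.9 and 69.3 CPM in E (-4.95 ± 0.52, 1.8e-06). Sox4 fell by 5.15 ± 0.72 (2.41e-05; -5.85 without ExE pool 5), Lin28b by 4.85 ± 0.83 (0.00016) and Rragd by 4.77 ± 0.71 (4.16e-05).

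Among the most abundant called genes, Ptma stood at 1942, 1737, 1722 and 2037 CPM in ExE, against 4040, 4193, 5049 and 4234 CPM in E (-1.24 ± 0.13, adjusted p = 1.96e-06). Hmga1, an architectural chromatin protein, fell by 1.01 ± 0.25 (0.00399). Tuba1a and Tubb5 were called lower but lost the call without E pool 4 (adjusted p = 0.147 for Tuba1a and 0.061 for Tubb5). Tuba1a also lost it without E pool 2 or any 1 ExE pool (0.0526 to 0.107), and Tubb5 without ExE pool 2 (0.083). Some genes had 0 counts in all libraries of 1 tissue, and a mean in the other above what 3 counts in the shallowest of those libraries allow. Of all 23725 lines, tested or not, these were 109 with reads in ExE and 440 with reads in E. The 2 numbers do not compare the tissues. The 109 had to be at 0 in E pool 4 too, where the 202 genes high in ExE had a median of 25.1% of the ExE mean. Against the limit of 3 counts, D430041D05Rik was at least 27.5-fold higher in ExE, Kdr at least 14.3-fold and Pdx1 at least 13.6-fold higher. Vgll1, a TEAD co-factor on the X chromosome, was at least 10.7-fold higher. On the other side Prickle2 was at least 17.9-fold lower in ExE, Camk1g at least 16-fold, Ankrd35 at least 14.9-fold and Gria4 at least 14.4-fold lower.

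The heterozygous tissue difference was then set against that of the other genotypes. In the same fit 2347 genes (17.3%) differed between wt ExE and E and 2282 (16.8%) between homozygous ExE and E. Homozygous E pool 3 and homozygous ExE pool 3 carried a length and GC bias like that of heterozygous E pool 4, whose part in these counts was not tested. Of the 3664 heterozygous calls 1934 were called in the same direction in wt (52.8% of the heterozygous calls and 82.4% of the wt calls) and 1868 in homozygous embryos (51% and 81.9%), and 0 and 1 were called in the opposite direction. A test of the difference itself, the interaction of tissue and genotype, called 0 genes for heterozygous against wt and 0 for heterozygous against homozygous with edgeR. Of the 13595 genes tested, 716 and 624 had an unadjusted p under 0.05 in these tests. A share of about 0.05 of all genes passes that threshold where none differs. DESeq2 made 28 and 6 calls and limma-voom 0 and 0. For the E gene Pou5f1 the log2 fold change was -4.57 in heterozygous, against -2.28 in wt and -2.23 in homozygous embryos, with an interaction of -2.28 ± 0.82 (adjusted p = 0.698) and -2.34 ± 0.85 (0.976). For the ExE gene Cdx2 it was 3.95 in heterozygous, 4.02 in wt and 3.29 in homozygous embryos.

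The 160 E genes stood at a median of 5.29, 6.04, 3.74 and 6.96% of the heterozygous E level in heterozygous ExE pools 1, 2, 3 and 5, which are low because the genes were chosen on these pools. In wt ExE pools 1, 2, 4 and 5 they stood at 39.2, 4.06, 21 and 12.8%, and in homozygous ExE pools 1, 3 and 4 at 6.14, 17.1 and 20.3%. These pools took no part in the choice, so the values do not compare the genotypes, and the part of E transcripts in the genotype differences was not tested. Among the genes with the smallest interaction p-values was Prkcb, a protein kinase C gene. It averaged 0.106 ± 0.213 CPM in heterozygous ExE and 12.9 ± 2.16 CPM in heterozygous E (SD, n = 4 each), against 3.13 ± 1.77 CPM in wt ExE and 12.7 ± 3.02 CPM in wt E, with an interaction of -4.62 ± 0.88 (adjusted p = 0.238). Vegfa averaged 28.1 ± 2.68 CPM in heterozygous ExE and 5.24 ± 1.32 CPM in heterozygous E, against 26.4 ± 10.1 CPM in wt ExE and 14.6 ± 4.64 CPM in wt E (1.56 ± 0.43, 0.502). Neither of these interactions passed the threshold.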

How the data were processed

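The authors deposited 1 table of raw read counts per gene for 23 libraries, with whole-number counts that were not normalized, per the file headers. The labels describe SMARTer amplification of poly(A) RNA and NEBNext libraries read as single ends on a NextSeq instrument. The submitters' processing notes name cutadapt 1.7.1, FastX 0.0.13, ShortRead 1.16.3, TopHat2 2.0.12 and mm10 (GRCm38). The counting program, its annotation and its strand setting were not given in the sources used here, so that overlapping, antisense and near-identical genes are uncertain. Of 23725 lines, 23362 (98.5%) matched an annotated gene, 827 by an older name, while 27 had a symbol turned into a date and 4 shared a symbol.

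From the deposited counts, edgeR 4.0.16 in R 4.3.3 fitted a quasi-likelihood model with 1 mean for each of the 6 groups of tissue and genotype, after a filter and TMM scaling. The filter asked for a count of about 10 in at least 3 of the 23 libraries, whatever their group, and 15 in all, 3 being the size of the smallest group. Heterozygous ExE was tested against heterozygous E, and that difference against the same difference in wt and homozygous embryos, with Benjamini-Hochberg adjustment over all 13595 genes and a threshold of 0.05. Fold changes are log2 of ExE over E (prior count 0.125), and the SE is the fold change divided by the square root of F. Log2 CPM values used a prior count of 2. The script was tested on simulated data. Genes for the text came from a rule: 8 methylation regulators, the 15 largest rises and 15 largest falls without overlap and with a mean log2 CPM of 3 or more, up to 4 called genes in each direction for each of 36 gene lists, the 5 leading genes in each direction of each interaction, 5 genes at 0 in each tissue, the 5 most abundant called genes in each direction, and all members of the epiblast and trophoblast lists. The text describes some of these. Amn, Dab2, Epcam, Etv1, Etv5, Dusp4, Mapk3, Foxh1, Id1 and T fall outside the rule and were chosen after their values were seen. The members, lists and tests were chosen with earlier results of these data known.

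Total counts of 5764399 to 9494814 per library set the limit of 3 counts, which covers counting error only. No replicate was a copy of another: chi-square per degree of freedom between libraries of 1 tissue was 13.1 or more. The labels say that pool numbers mark shared litters in most cases, so pool number was used as a block in an alternative. ExE pool 1 and E pool 4 have no same-numbered partner among the heterozygous pools. With the block the heterozygous tissue difference therefore rests on pools 2, 3 and 5. Deviations of same-numbered ExE and E pools correlated at 0.179, 0.015 and -0.135 for pools 2, 3 and 5. P-values measure the spread between pools. Alternatives were other scaling, DESeq2 1.42.0, limma-voom (limma 3.58.1), no filter, a correction for GC content and length, the block, fewer libraries, and a test against a fold of 1.5. A fit of the 8 heterozygous libraries less E pool 4 was added after seeing the data. Promoters came from RefSeq (GRCm38.p6) and gene coordinates from GENCODE.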

Additional observations from a re-analysis of the deposited data

Results flagged for a closer look

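In 468 groups of 4 libraries checked, 38 had 1 library separated from the other 3 by a gap beyond Dixon's 95% critical value, and chance flags about 1 in 20 groups. E pool 4 was that library in these groups most often, highest in 12 and lowest in 7. It was the highest of the E pools for Fzd2 (136 CPM), Phlda2 (85 CPM), Apoe (476 CPM), Hbb-bt (0.176 CPM), Asz1 (0.352 CPM), Tex19.1 (103 CPM), Id3 (493 CPM), Igf2 (79.4 CPM), Rhox9 (3.34 CPM), Itga7 (37.8 CPM), Hmga1 (3192 CPM) and the mean log2 CPM of the red blood cell list (-0.18). It was the lowest for Tet1 (66.7 CPM), Dnmt1 (211 CPM), Slc7a3 (364 CPM), Rragd (73.7 CPM), Sycp3 (7.22 CPM), Etv5 (268 CPM) and Rlim (38.2 CPM). The Tet1 value lay 0.907 of the range from its neighbour, with the other E pools at 137 to 147 CPM.

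Among the other E pools, E pool 2 was high for Fgf4 (81.6 CPM) and low for the mean log2 CPM of the X inactivation list (2.78), E pool 3 was low for Mta1 (101 CPM) and high for Prdm1 (1.15 CPM) and Dab2 (27.4 CPM), and E pool 5 was low for Vegfa (3.28 CPM). Among the ExE pools, pool 3 was low for Crmp1 (1.23 CPM), Ccnd1 (4.35 CPM) and Otx2 (2.79 CPM) and high for Prdm1 (1.79 CPM). ExE pool 5 was high for Lef1 (6.82 CPM), Prkcb (0.426 CPM), Zic2 (4.79 CPM), Dcn (0.107 CPM) and Sox17 (0.213 CPM). ExE pool 2 was low for Apex1 (39.1 CPM), Dusp4 (5.73 CPM) and Adm (0 CPM), and ExE pool 1 was low for Kdr (1.75 CPM).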

How the results depend on the processing

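The count of 3664 genes that differed between heterozygous ExE and E ran from 2994 to 3907 when 1 heterozygous library was left out, and was 4161 with the pool number as a replicate block, 4550 with the GC and length correction, 4174 with DESeq2, 4154 with limma-voom, 3650 with relative log expression scaling and 4853 for the heterozygous libraries less E pool 4. A test against a fold of 1.5, which asks for more than a difference, called 2271 genes, 925 higher and 1346 lower in ExE. The interactions with genotype gave 28 calls against wt and 6 against homozygous embryos with DESeq2, and 0 to 1 against wt when 1 heterozygous library was left out, the 1 without ExE pool 5. Of 198 genes named in the text and tested, Epcam, Id1 and T not among them, the block ended 10 calls and made 3, each given beside its gene. It changed no other call of these genes. With the block, ExE pool 1 and E pool 4, which have no same-numbered partner, do not enter the heterozygous tissue difference. For Cdx2 the log2 fold change was 5.63 with the block and 5.60 without E pool 4. The block thus changes the pools compared as well as the pairing, and the part of each was not tested. Genes whose sign turned were not called under any setting that turned it. Uhrf1 was -0.01 with DESeq2 and with relative log expression scaling, -0.02 with the block and GC and length correction, -0.03 for the heterozygous libraries less E pool 4, -0.02 without the 3 libraries of steep length slope, and -0.04 to 0.06 with 1 library left out. Dnmt1 was -0.02 and -0.01 under the last 2 of these sets of libraries. Sox2 was -0.0033 with the block, -0.02 with the block and the correction, -0.01 with the block in heterozygous libraries alone and -0.0039 in these less E pool 4. Adm was -0.12 with the block, -0.15 with the correction too and -0.03 with the block in heterozygous libraries alone, and Prdm1, with reads in 2 pools, ran from -4.28 to 4.86 with 1 library left out. A gene with 0 counts may have a level up to that of 3 counts, 0.319 to 0.528 CPM by library, at this depth.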
